A study of Mus musculus with 8 samples.

Results

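A set of 37 genes that build, bind, cleave or protect the cardiac jelly was followed in open chromatin of embryonic mouse hearts, out of 21951 protein-coding genes in the annotation. The set held hyaluronan synthases, hyaluronan-binding proteoglycans with the link protein *Hapln1*, ADAMTS and matrix metalloproteinase (MMP) genes and the TIMP inhibitors, chosen by name for their roles. A peak was counted for a gene when the nearest protein-coding transcription start site (TSS) to its centre was that gene's, or when it lay within 10 kb of the gene body (GENCODE release M21 on mm10). By that rule 67 of 15736 listed peaks belonged to the set, 60 gained and 7 lost, and each was counted for 1 gene of the set.

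Accessibility was read by ATAC-seq, where Tn5 transposase cuts and tags open DNA. The 8 samples comprised 4 from WT and 4 from *Chd4-CMko* hearts at E10.5, a conditional null of the remodeller gene *Chd4* in cardiomyocytes. Each sample pooled several hearts (4 in the sample protocol, 3 in the series design) and used 40000 viable cells of the whole dissociated heart. The study's crosses for stained embryos of this stage used *Tnnt2*-Cre with floxed *Chd4*, and the driver is not restated for these hearts. The comparison asked where chromatin opens or closes in the heart when cardiomyocytes lack CHD4. The data were a list of 12991 peaks higher in *Chd4-CMko* (gained) and a list of 2745 peaks higher in WT (lost), made with a limit of a 2-fold change. Neither list holds values for single samples, and so no replicate error, interval or test between genotypes exists for any value that follows, and read depth behind a peak is unknown. A peak in neither list may be open in both genotypes or in none. Each peak carried a score whose scale is not stated. Scores were compared within a list only, except in an alternative setting with a common score limit on both lists. In tissue made of several cell types, a changed share of a cell type and a change within its cells cannot be told apart.

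Cardiac jelly is the matrix between the endocardium and the myocardium of the early heart. Hyaluronan, made at the plasma membrane by HAS enzymes, carries versican along its length, and link protein holds the complex together. As trabeculae, the muscular ridges of the ventricle wall, grow into the jelly, metalloproteases of the ADAMTS and MMP families cut its proteoglycans and collagens, while TIMP proteins block many of these enzymes. The endocardial remodeller BRG1 is known to hold *Adamts1* off early in trabeculation, so that the jelly persists.

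Gained peaks reached most of the set. A gained peak was assigned to 25 of 37 genes (67.6%), where all protein-coding genes gave 37.4% (8207 of 21951). Lost peaks were assigned to 5 of 37 genes (13.5%), where all protein-coding genes gave 10.8% (2364 of 21951), and this order turned in 3 other settings, where 2 or 3 genes of the set had one. These were within 10 kb of the body alone (5.41% against 7.3%), a limit of 100 kb to the nearest TSS (8.11% against 9.54%) and starts of any annotated gene (8.11% against 8.16%). *Hapln1*, *Adamts8*, *Adamts20* and *Adamts17* had both kinds, *Adamts5* had lost peaks alone, and 11 genes had neither. Of the genes with gained peaks, 7 had 1 peak, 8 had 2, 5 had 3, 3 had 4, and *Adamts15* and *Adamts16* had 5 each.

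**Figure D1:**
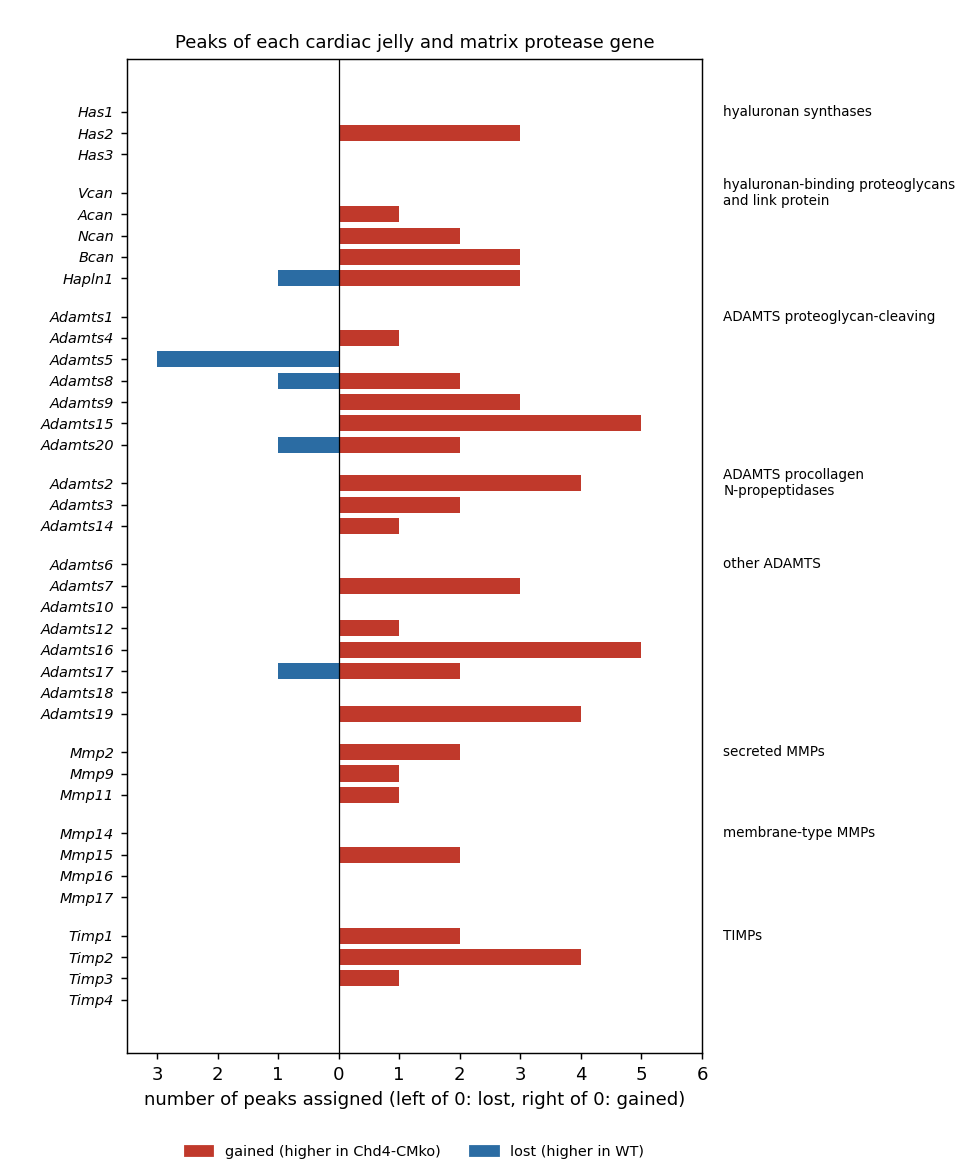
Number of gained peaks (red, to the right of 0) and lost peaks (blue, to the left of 0) assigned to each of the 37 genes, grouped by role. *Adamts15* and *Adamts16* carry 5 gained peaks each, *Adamts5* carries 3 lost peaks and no gained peak, and 11 genes carry none.

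Long genes collect more peaks under such a rule, and the genes of the set were long, with a median body of 45 kb. Among 10387 protein-coding genes with a body in the interquartile range of the set (15.1 to 152 kb), 43.5% had a gained peak and 12.4% a lost peak. In the class of 10 to 30 kb, 10 of 16 genes of the set had a gained peak and 34.7% of all genes did. Between 30 and 100 kb the values were 6 of 8 genes and 46.1%. Over 100 kb they were 8 of 11 genes (72.7%) and 68.5%, so the share in the set was close to that of all genes of this length. Below 10 kb the set held 2 genes, *Timp1* with gained peaks and *Adamts1* without, and neither had a lost peak. Lost peaks were assigned to 1 of 16 genes at 10 to 30 kb (all genes 6.21%) and 2 of 8 at 30 to 100 kb (14%). Over 100 kb they were assigned to 2 of 11 genes, where 36.5% of all genes of this length had one.

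**Figure D2:**
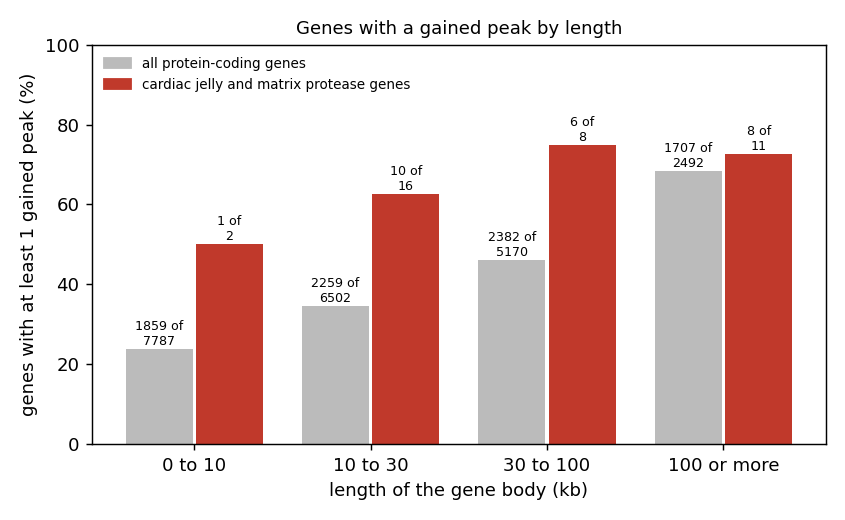
Share of genes with at least 1 gained peak (%) in 4 classes of gene body length (kb), for all protein-coding genes (grey) and the 37 genes of the set (red), with counts above the bars. The red bar stands above the grey one in each class, and least so in the longest.

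A stricter count kept only peaks with a centre within 3 kb of a TSS of the gene itself. Then 9 of 37 genes (24.3%) had a gained peak, where all protein-coding genes gave 12.3% and those in the length range of the set 14.5%. These were *Acan*, *Bcan*, *Adamts9*, *Adamts2*, *Adamts3*, *Adamts16*, *Adamts19*, *Mmp11* and *Mmp15*. At *Adamts9*, *Adamts2*, *Mmp11* and *Mmp15* the start was that of an internal transcript with no coding product, so only 5 genes (8 peaks) had a gained peak this close to the start of a protein-coding transcript. By this count the set gave 13.5%, all protein-coding genes 9.86% and those in its length range 11%, a smaller contrast than with starts of all transcripts. Lost peaks gave 1 gene by this count, *Adamts8* (2.7%), where all protein-coding genes gave 1.23%.

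Among the hyaluronan synthases, *Has2*, the enzyme that cardiac jelly formation requires, had 3 gained peaks and no lost peak. All 3 lay upstream, 23208, 26285 and 115805 bp from the TSS, with scores of 45.5, 90.5 and 31.5. The nearer pair sat in introns of the antisense gene *Has2os*, and the highest of the 3 scores exceeded 67.5% of gained peaks. No listed peak fell within 3 kb of the *Has2* start. *Has1* and *Has3*, which encode the other two synthases, had no peak by the rule. The closest gained peak to *Has1* was 14.5 kb from its body at *Spaca6* (score 258.5), and that to *Has3* was 146 kb away at *Vps4a* (score 667.5). The *Has2* intervals are shown because this synthase had gained peaks only at a distance. In each sequence of mm10 printed here, capitals mark matches to the motif strings described further on.
Has2 upstream 23208 bp (chr15:56717672-56717822, plus strand): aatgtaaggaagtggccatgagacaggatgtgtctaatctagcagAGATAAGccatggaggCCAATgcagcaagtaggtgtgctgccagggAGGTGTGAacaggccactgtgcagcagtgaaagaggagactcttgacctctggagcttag
Has2 upstream 26285 bp (chr15:56720749-56720899, plus strand): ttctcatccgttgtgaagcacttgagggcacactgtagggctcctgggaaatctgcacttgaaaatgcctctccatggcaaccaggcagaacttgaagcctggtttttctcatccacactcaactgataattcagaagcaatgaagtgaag
Has2 upstream 115805 bp (chr15:56810269-56810419, plus strand): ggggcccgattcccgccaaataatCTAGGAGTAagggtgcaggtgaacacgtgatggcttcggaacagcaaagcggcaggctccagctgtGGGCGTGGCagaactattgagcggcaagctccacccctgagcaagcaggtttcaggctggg

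The first *Has2* interval held the strings of NFY, GATA and TBX factors once each, and the second, with the highest score of the 3, held none of the strings. The third held those of MEF2 and KLF factors once each, and repeats covered 95.4% of it, so that *Has2* kept 2 gained peaks when peaks at least 50% in repeats were left out.

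Of the proteoglycans that bind hyaluronan, versican (*Vcan*), the main one of the cardiac jelly, had neither a gained nor a lost peak. The gained peak closest to its body lay 41.3 kb away, between the 3′ ends of *Vcan* and *Hapln1*, and was counted for *Hapln1*, 2298 bp past its body. The nearest start to this peak was an internal one of *Hapln1* with no coding product, so the peak was not also counted for *Vcan*. With starts of protein-coding transcripts alone, or with a window of 50 kb, *Vcan* had 1 gained peak. The closest lost peak was 211 kb away. *Acan*, which encodes aggrecan, had 1 gained peak 358 bp upstream of its start (chr7:79053050-79053200, score 107.5), which overlapped the non-coding gene *Gm26633* and was closer to its start (198 bp). *Bcan*, which encodes brevican, had 3 gained peaks, among them the 2 highest scores of the set. They lay 264 bp upstream of its 5′ end (chr3:88000419-88000569, score 133.5), in an intron 149 bp from an internal start (chr3:87997339-87997489, score 262.5) and 4539 bp beyond its 3′ end (chr3:87982917-87983067, score 349). The last was above 98.7% of gained scores. *Ncan*, which encodes neurocan, had 2 gained peaks with scores of 166 and 108.5, both at the promoter of the neighbouring link protein gene *Hapln4* (chr8:70083416-70083566 and chr8:70084158-70084308). These lay 9594 and 8852 bp past the *Ncan* body, just inside the 10 kb limit. Just outside it was a lost peak 10.7 kb from *Acan* (score 46.1) at *Hapln3*, another link protein gene.

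*Hapln1* is the link protein gene next to *Vcan*, and the facing 3′ ends of the pair are 43.7 kb apart. It had 3 gained peaks, 203656 and 154868 bp upstream and 2298 bp beyond its 3′ end, with scores of 53.5, 50.5 and 42. One lost peak (score 20.5) lay 95914 bp upstream, between the start and the upstream gained pair. All 4 were intergenic, and none was within 3 kb of its start. The intervals of *Acan* and *Bcan* are shown as the peaks nearest to starts in this group and the highest score of the set.
Acan upstream 358 bp (chr7:79053050-79053200, plus strand): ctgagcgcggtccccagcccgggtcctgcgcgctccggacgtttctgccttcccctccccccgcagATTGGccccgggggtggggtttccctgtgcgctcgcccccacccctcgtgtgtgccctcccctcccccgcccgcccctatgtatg
Bcan upstream 264 bp (chr3:88000419-88000569, plus strand): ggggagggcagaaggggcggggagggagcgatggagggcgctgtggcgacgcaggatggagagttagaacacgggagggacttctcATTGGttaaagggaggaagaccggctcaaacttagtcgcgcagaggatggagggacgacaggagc
Bcan intron (chr3:87997339-87997489, plus strand): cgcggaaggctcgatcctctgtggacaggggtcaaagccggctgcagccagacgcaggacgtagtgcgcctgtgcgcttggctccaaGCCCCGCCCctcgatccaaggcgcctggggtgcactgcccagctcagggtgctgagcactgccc
Bcan downstream (chr3:87982917-87983067, plus strand): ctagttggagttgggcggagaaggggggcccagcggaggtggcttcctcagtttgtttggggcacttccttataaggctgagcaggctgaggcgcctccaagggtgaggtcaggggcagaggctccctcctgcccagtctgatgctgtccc

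Both upstream intervals held the NFY string on the minus strand, and the GC content of the *Acan* interval was 74.2%. The *Bcan* interval with the highest score held no match.

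The ADAMTS enzymes known to cut versican or aggrecan differed among themselves. *Adamts1*, which encodes the versican-cleaving enzyme best known from trabeculation, had no peak, and the closest gained and lost peaks were 162 and 250 kb from its body (scores 25.5 and 18.7, both nearest to *Cyyr1*). *Adamts5*, a versican-cleaving enzyme required for valve remodelling, lies 53.1 kb from *Adamts1* with no listed peak between them. It had 3 lost peaks and no gained peak. These lay 376, 552 and 615 kb upstream in intergenic DNA with scores of 28.4, 16.1 and 22, all below the lost-list median of 36.8. No listed peak lay within 100 kb of either gene.

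*Adamts15* had 5 gained peaks, all beyond its 3′ end, at 65304, 98604, 106862, 144328 and 211951 bp from its nearest TSS. Their scores were 211.5, 177, 53, 49.5 and 148.5, so 3 of the 5 were above the gained-list median of 62.5, the nearest highest. The non-coding genes *Gm31013* and *Gm47717* lie among these peaks and have closer starts to all 5. *Adamts8* starts 20.1 kb from its 5′ end and runs in the opposite direction, and the only listed peak between the 2 genes was a lost one.

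That lost peak lay upstream of the *Adamts8* start and within 3 kb of it. Its score of 87.5 was the highest of the 7 lost peaks and exceeded 94.3% of the lost list. *Adamts8* also had 2 gained peaks of low score, one over an exon (48.5) and one 3370 bp past its 3′ end (39.5). Lost and gained peaks thus lay on opposite sides of its start.
Adamts15 downstream, gained (chr9:30844278-30844428, plus strand): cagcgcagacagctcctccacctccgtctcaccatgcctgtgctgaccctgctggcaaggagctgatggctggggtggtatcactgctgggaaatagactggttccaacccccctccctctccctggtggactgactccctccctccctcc

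This interval is shown as the highest gained score of *Adamts15*, and it held none of the strings.

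**Figure D3:**
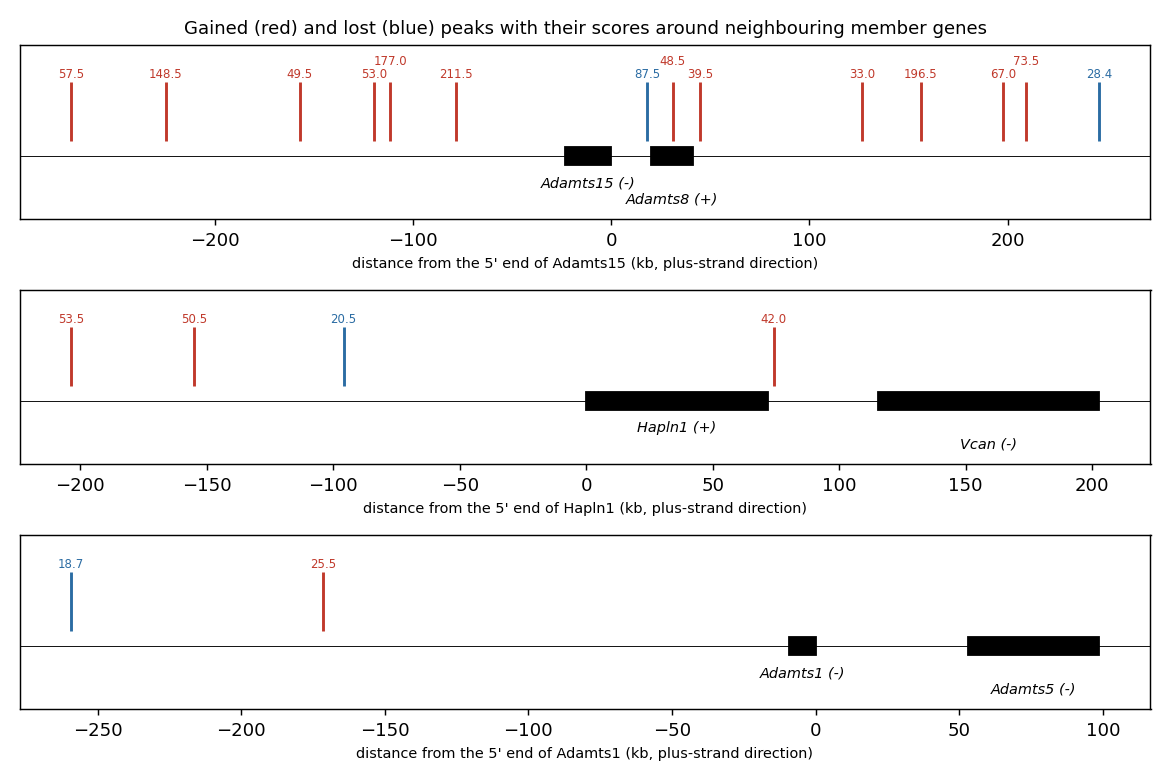
Gained (red) and lost (blue) peaks with their scores around the gene pairs *Adamts15* and *Adamts8*, *Hapln1* and *Vcan*, and *Adamts1* and *Adamts5*, by distance from the 5′ end of the first gene (kb). Black boxes are gene bodies with their strand, scores are not comparable between the colours, and the lost peaks of *Adamts5* lie beyond the right edge.

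The remaining enzymes of this group were *Adamts4*, *Adamts9* and *Adamts20*. *Adamts9*, which encodes a versican-cleaving enzyme of heart and valves, had 3 gained peaks. One was in an intron 4660 bp from a coding start (score 136), one over an exon 222 bp from the start of an internal transcript (chr6:92859848-92859998, score 29.5) and one 303 kb upstream (score 29.5). *Adamts4*, which encodes an aggrecan-cleaving enzyme, had 1 gained peak (score 158) 2632 bp past its 3′ end, with a closer start of *B4galt3*. *Adamts20* had 2 gained peaks (scores 50 and 36) and 1 lost peak (42.5), all downstream and between 202 and 379 kb from its nearest start. In all, gained peaks were assigned to 5 of these 7 genes (71.4%, against 37.4% of all protein-coding genes) and lost peaks to 3 (42.9% against 10.8%). The lost peaks of *Adamts5* and *Adamts20* were no longer counted for them within 10 kb of the body alone, with a limit of 100 kb to the nearest TSS, or with starts of any annotated gene.

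All 3 genes for procollagen N-propeptidases, which trim the ends of fibrillar collagens, had gained peaks and none had a lost one. The bodies of *Adamts2* (205 kb) and *Adamts3* (206 kb) fell in the length class where 68.5% of all genes had a gained peak, and *Adamts14* (76.3 kb) in that with 46.1%. *Adamts3*, whose product also processes the lymphatic growth factor VEGF-C, had 2 at its 5′ end. One lay 246 bp upstream (chr5:89883505-89883655, score 206.5) and one in an intron, over the start of an internal transcript and 726 bp from a coding start (chr5:89882134-89882284, score 198.5). They exceeded 92.1% and 91.4% of the gained list. *Adamts2* had 4 gained peaks, 2 upstream (scores 100.5 and 25), 1 intronic (123) and 1 intronic 1715 bp from an internal start (chr11:50777819-50777969, score 75). *Adamts14* had 1 in an intron (120.5), with a closer start of *Tbata*. The intervals of *Adamts3* are shown as the pair of high-scoring gained peaks at a single 5′ end.
Adamts3 promoter (chr5:89883505-89883655, plus strand): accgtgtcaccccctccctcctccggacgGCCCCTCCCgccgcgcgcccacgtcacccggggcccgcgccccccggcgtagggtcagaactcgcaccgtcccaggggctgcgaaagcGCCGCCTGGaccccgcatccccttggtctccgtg
Adamts3 internal start (chr5:89882134-89882284, plus strand): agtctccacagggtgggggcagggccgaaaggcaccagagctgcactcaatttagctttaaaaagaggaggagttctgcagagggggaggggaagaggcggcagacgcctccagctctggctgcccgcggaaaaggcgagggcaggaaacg

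The promoter interval of *Adamts3* had a GC content of 76.8% and held the KLF string and the CTCF string once each, on the minus strand. The internal interval, with a GC content of 61.6%, held none of the strings.

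Among the other ADAMTS genes, *Adamts16* and *Adamts19* had gained peaks over their starts. *Adamts16* had 5 gained peaks, with one centred 51 bp inside its 5′ end (chr13:70841685-70841835, score 51), 3 upstream at 20820, 137763 and 486540 bp (scores 49.5, 25 and 80) and 1 past its 3′ end (31). The *Adamts16* interval is shown because it covers the 5′ end of the gene.
Adamts16 promoter (chr13:70841685-70841835, plus strand): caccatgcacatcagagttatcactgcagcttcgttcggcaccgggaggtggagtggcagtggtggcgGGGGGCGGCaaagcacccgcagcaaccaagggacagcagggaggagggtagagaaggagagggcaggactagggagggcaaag

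It held the KLF string once.

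*Adamts19*, a gene linked to heart valve disease, had 4 gained peaks. One covered its start (score 135.5), one lay 543 bp upstream (100) and the others were 59481 bp upstream, at the start of a non-coding gene (42.5), and in an intron (26). The intervals of the first pair are chr18:58836600-58836750 and chr18:58836049-58836199, and that at the non-coding start is chr18:58777111-58777261. *Adamts7*, which encodes an enzyme that cuts cartilage oligomeric matrix protein, had 2 intronic gained peaks (127 and 99.5) and 1 past its 3′ end (44). *Adamts12*, its closest relative, had 1 intronic peak (39.5) that repeats covered completely. *Adamts17* had 2 intronic gained peaks (29 and 46.5) and 1 intronic lost peak (45). *Adamts6* and *Adamts10*, which act on fibrillin microfibrils, and *Adamts18* had none, and the gained peaks closest to their bodies were 34.6, 91.9 and 520 kb away.

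Across the 18 ADAMTS genes, gained peaks were assigned to 13 (72.2%) and lost peaks to 4 (22.2%), where all protein-coding genes gave 37.4% and 10.8%. These genes had a median body of 133 kb, and of all protein-coding genes over 100 kb 68.5% had a gained and 36.5% a lost peak. As 8 of the 18 were shorter than that, neither background matches them in length. The gained peaks of *Adamts3*, *Adamts16* and *Adamts19* at their own starts differed in place from those of *Adamts15* and *Adamts20*, which all lay beyond the 3′ end.

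The 3 secreted MMP genes all had gained peaks, where 34.7% of all genes in their length class of 10 to 30 kb did, and 1 peak of each stood at the start of a neighbour. The gelatinase gene *Mmp9* had 1 (chr2:164961017-164961167, score 261.5), which was 246 bp from a start of *Slc12a5* and 5242 bp past the *Mmp9* body. *Mmp11*, which encodes stromelysin 3, had 1 (chr10:75921102-75921252, score 256), 412 bp from a start of *Smarcb1* and 2816 bp from one of its own internal starts. *Mmp2*, the other gelatinase gene, had 1 that was 9 bp from a start of *Lpcat2* (chr8:92855255-92855405, score 136) and 1 of low score 55277 bp upstream (27). No peak of *Mmp2* or *Mmp9* was within 3 kb of a TSS of the gene itself. With the nearest TSS alone as the rule, *Mmp9* and *Mmp11* kept no gained peak and *Mmp2* kept 1.

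Of 4 genes for membrane-type MMPs, only *Mmp15* had peaks by the rule (25%, against 37.4% of all protein-coding genes), 2 gained and intronic. One lay 111 bp from the start of an internal transcript (chr8:95369685-95369835, score 150.5) and the other 3320 bp from it (65). The 5′ end of the gene was 17492 bp from the first. *Mmp14*, which encodes the main activator of pro-MMP2, *Mmp16* and *Mmp17* had neither kind. A gained peak lay 31.2 kb from *Mmp14* (score 102.5) and 31.3 kb from *Mmp17* (29.5), while none was closer than 1740 kb to *Mmp16*. The intervals of *Mmp11* and *Mmp15* are shown as the MMP peaks nearest to a start of the gene.
Mmp11 downstream (chr10:75921102-75921252, plus strand): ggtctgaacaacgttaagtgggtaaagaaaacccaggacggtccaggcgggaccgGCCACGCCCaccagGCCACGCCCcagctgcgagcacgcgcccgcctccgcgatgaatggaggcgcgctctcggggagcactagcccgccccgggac
Mmp15 intron (chr8:95369685-95369835, plus strand): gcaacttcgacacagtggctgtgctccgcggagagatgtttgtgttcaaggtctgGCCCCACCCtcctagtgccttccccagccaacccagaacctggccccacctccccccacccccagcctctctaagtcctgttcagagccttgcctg

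The *Mmp11* interval held the KLF string 2 times and the *Mmp15* interval once, all on the minus strand.

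Of 4 TIMP genes, which encode the inhibitors, 3 had a gained peak (75%, against 37.4% of all protein-coding genes), with 5 of their 7 peaks in introns and 2 past the 3′ end. The bodies of *Timp2* (54.7 kb) and *Timp3* (49.1 kb) fell in the length class where 46.1% of all genes had a gained peak. *Timp4* (10.3 kb) fell in that with 34.7% and *Timp1* (4.57 kb) in that with 23.9%. *Timp2*, whose product also takes part in MMP2 activation, had 4 gained peaks, 3 in introns (118.5, 70.5 and 125) and 1 past its 3′ end (80.5). One of the intronic peaks was 382 bp from a start of *Cep295nl*, a gene within *Timp2* (chr11:118342043-118342193). With the nearest TSS alone as the rule, *Timp2* kept 1 gained peak. *Timp1* had 1 in an intron (124.5) and 1 past its 3′ end (39), both within the host gene *Syn1*. *Timp3*, the inhibitor that stays bound to the matrix, had 1 in an intron (85), within *Syn3*. *Timp4* had none, and the closest gained peak was 110 kb away. No TIMP gene had a lost peak or a peak within 3 kb of a TSS of its own.

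**Figure D4:**
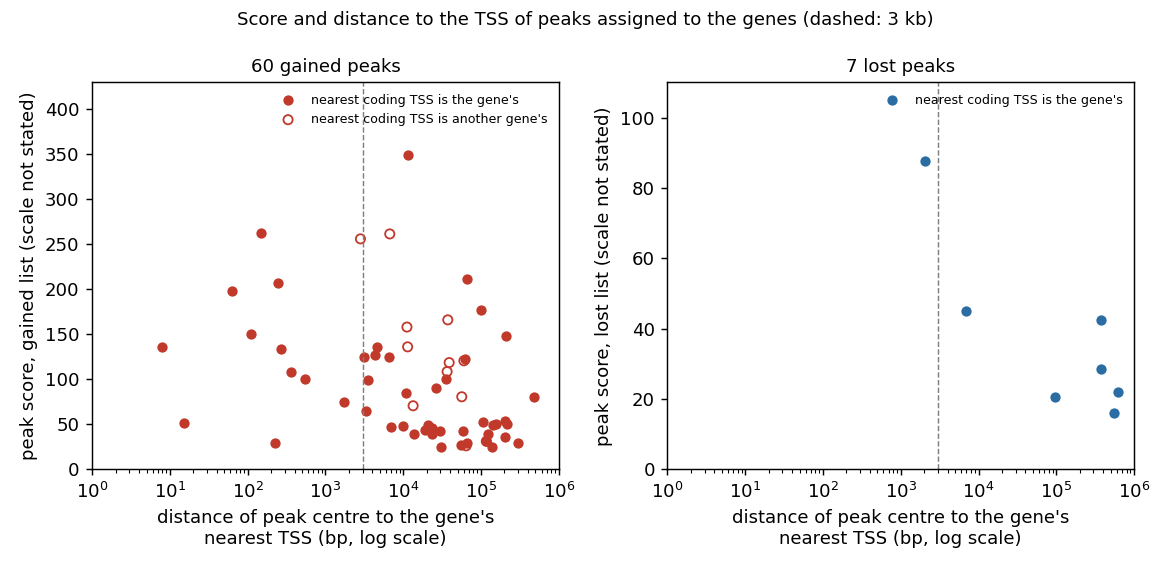
Score of each peak of the set against the distance of its centre from the nearest TSS of its gene (bp, log axis), for 60 gained (left) and 7 lost peaks (right). Open circles are peaks with a closer start of another protein-coding gene, the dashed line is 3 kb, and the 2 score axes are separate scales. The highest gained score, 349, lies 11463 bp from a start of *Bcan*.

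Of the 60 gained peaks, 12 were within 3 kb of a TSS of the assigned gene, 6 within 3 kb of a TSS of another gene only, and 13 over 100 kb from the nearest TSS of the assigned gene. Scores of the first 12 ran from 29.5 to 262.5 and those of the last 13 from 25 to 148.5. For 48 peaks the nearest protein-coding start was that of the assigned gene, and for 12 it was another gene's. In position the gained peaks of the set were close to the whole gained list, with 30% against 30.6% within 3 kb of any TSS, 36.7% against 34.2% in introns and 31.7% against 32.2% intergenic. More of them were over 100 kb from the nearest protein-coding TSS, 12 (20%) against 14.1%. GC content was 57% ± 8.77 (mean ± SD over 60 peaks) against 56.7% ± 8.55 over all 12991 peaks. Repeats covered at least 50% of 5 gained peaks, 1 each at *Has2*, *Hapln1*, *Adamts20*, *Adamts12* and *Adamts16*. The median score was 80.2, against 62.5 in the whole list. Among the 7 lost peaks, 5 were intergenic (71.4%, against 32.9% of all lost peaks) and 4 were over 100 kb from the nearest protein-coding TSS (57.1% against 20.5%).

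Motif strings were searched on both strands of each interval without mismatch, and matches of different strings may overlap. The string for MEF2 factors was CTANNNNTA and that for KLF factors was GGGNGNGGC. The string searched for NFY factors was CCAAT. Zinc finger factors of the GATA family were represented by their consensus AGATAAG. TEAD factors, the partners of YAP, were searched for with ACATTCC, and ETS factors were searched with CAGGAAG. The insulator protein CTCF was searched with CNAGGNGGC and TBX factors with AGGTGTNA. RBPJ, the DNA-binding partner of Notch, was searched with GTGGGAA. Among the 60 gained peaks of the set, the NFY string was in 20 (33.3%, against 29.3% of all gained peaks) and the KLF string in 16 (26.7% against 24.4%). The GATA string was in 7 (11.7% against 5.45%), at *Has2*, *Hapln1*, *Adamts9*, *Adamts20*, *Adamts7*, *Adamts16* and *Mmp15*, 1 peak each. The MEF2 string was in 5 (8.33% against 12.3%), that of CTCF in 4 (6.67% against 4.02%), of TEAD in 3 (5% against 3.76%), of TBX in 3 (5% against 2.89%), of ETS in 2 (3.33% against 8.33%) and of RBPJ in 2 (3.33% against 3.48%). With 1 mismatch allowed, the GATA string was in 38.3% against 35.7%, and the order of set and list turned for 6 of the 9 strings. These were NFY (95% against 95.6%), KLF (71.7% against 72%), CTCF (45% against 49.1%), TEAD (31.7% against 33.2%), ETS (63.3% against 60.9%) and RBPJ (53.3% against 45.5%). A match is a string in the interval and not evidence of binding.

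To relate the set to trabeculation, a list of 34 other genes known in that process, with ligands, receptors, transcription factors and other regulators, was counted by the same rule. A gained peak was assigned to 27 of them (79.4%) and a lost peak to 9 (26.5%). Protein-coding genes in the interquartile length range of that list gave 41.1% and 10.6%. Within 3 kb of their own TSS, 8 had a gained peak (23.5%, against 12.3% of all protein-coding genes and 13.8% in their length range), namely *Erbb4*, *Notch1*, *Dll4*, *Heyl*, *Prdm16*, *Nfatc1*, *Nppa* and *Plxnd1*, and none had a lost one. The jelly and protease set gave 24.3% by this count. At starts of protein-coding transcripts alone the trabeculation list gave 6 genes (17.6%, against 9.86% of all protein-coding genes and 10.6% in its length range), without *Prdm16* and *Plxnd1*, and the set 13.5%. In neuregulin signalling, which drives trabecular growth, the ligand gene *Nrg1* had 6 gained peaks, all intronic (scores 34 to 86.5), and 1 lost peak upstream. The receptor gene *Erbb4* had 1 gained peak at its start (155) and 2 lost peaks away from it. In Notch signalling from the endocardium, *Notch1* had 218.5 and *Dll4* 154 as highest gained scores, and the target gene *Heyl* had a peak of 268 that was 134 bp from a start. The genes with the most gained peaks were *Efnb2* (9, with 3 lost), *Daam1* (9) and *Prdm16* (8), and all 9 of *Efnb2* lay downstream of it, 62.9 to 1570 kb from its TSS. *Hey2* had a lost peak alone, and *Smarca4*, which encodes BRG1, had none.

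A pair of further lists gave the rest of the pathway. Of 22 other hyaluronan and jelly matrix genes, 11 had a gained peak (50%, against 37.4% of all protein-coding genes) and 4 a lost peak (18.2% against 10.8%), with the fibronectin gene *Fn1* (6 gained, 4 lost) and the hyaluronan receptor gene *Stab2* (5 gained) holding the most. Within 3 kb of their own TSS, *Hapln4*, *Stab2*, *Fn1* and *Nid2*, which encodes the basement membrane protein nidogen 2, had a gained peak (18.2%, against 12.3% of all genes) and *Hapln3* a lost one (4.55% against 1.23%). Of 23 other matrix proteases and inhibitors, 8 had a gained peak (34.8%), close to the 37.4% of all genes, and 4 a lost peak (17.4% against 10.8%). *Adamtsl1* had the most (5 gained, 3 lost), all intronic, and *Mmp25* and *Adamtsl5* had a gained peak within 3 kb of their own TSS (8.7% against 12.3%). The trabeculation list, above the jelly and protease set by the main rule, was below it within 10 kb of the body alone (47.1% against 59.5%) and with starts of any annotated gene (50% against 64.9%). It was also slightly below the set within 3 kb of a TSS (23.5% against 24.3%).

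**Figure D5:**
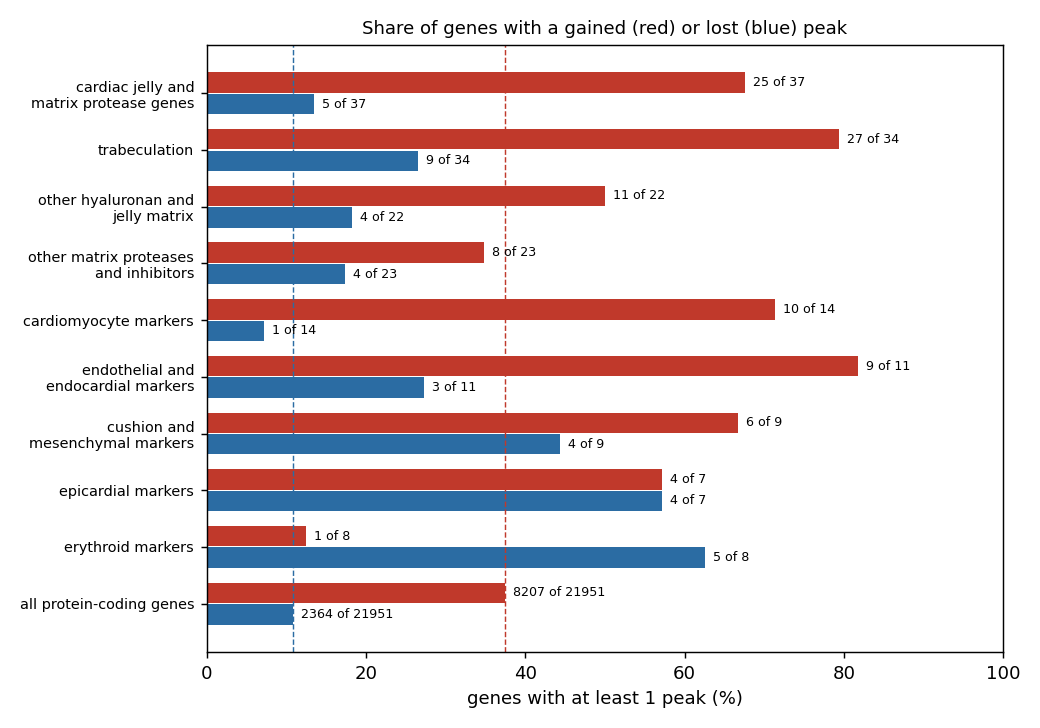
Share of genes with at least 1 gained (red) or lost (blue) peak (%) in the jelly and protease set, 3 related lists, 5 lists of cell type markers and all protein-coding genes, with counts beside the bars. Dashed lines mark all protein-coding genes (37.4% gained, 10.8% lost), and the set stands at 67.6% and 13.5%.

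Markers of the cell types in the hearts were also in the lists. A gained peak was assigned to 10 of 14 cardiomyocyte (71.4%), 9 of 11 endothelial and endocardial (81.8%), 6 of 9 cushion and mesenchymal (66.7%), 4 of 7 epicardial (57.1%) and 1 of 8 erythroid markers (12.5%), against 37.4% of all protein-coding genes. A lost peak was assigned to 1 (7.14%), 3 (27.3%), 4 (44.4%), 4 (57.1%) and 5 (62.5%) of them, respectively, against 10.8%. Those with a gained peak within 3 kb of their own TSS were *Tnni1*, *Tnni3*, *Myl3*, *Myl4*, *Actn2* and *Nppa* of cardiomyocytes, *Eng*, *Egfl7* and *Nfatc1* of endothelium, *Twist1*, *Col1a1* and *Col3a1* of cushions, and *Upk3b*, *Aldh1a2* and *Krt19* of epicardium. These made up 42.9%, 27.3%, 33.3% and 42.9% of the 4 lists, where all protein-coding genes gave 12.3%. The erythroid genes *Hba-x*, *Hbb-y* and *Alas2* had a lost peak this close (37.5%, against 1.23% of all protein-coding genes). The most peaks of each list were at *Ryr2* (1 gained, 3 lost), *Kdr* (5 gained, 1 lost), *Sox9* (6 gained), *Aldh1a2* (2 gained, 2 lost) and *Hbb-y* (4 lost). Neither kind was assigned to 4 cardiomyocyte, 1 endothelial, 1 cushion and 2 erythroid markers. The lost peaks of *Hba-a1* were those also counted for *Hba-x*, and *Tcf21*, with a lost peak, was in both the cushion and the epicardial list. The part of these cell types in the peaks of the set was not tested. As the lists hold only peaks that differed, they cannot check the labelled tissue against its markers.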

How the data were processed

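Open chromatin was profiled by ATAC-seq in 4 WT and 4 *Chd4-CMko* samples of pooled E10.5 mouse hearts. Per the labels and the study's methods, the authors used BWA-MEM for alignment to mm10 and HOMER (4.10.3) for peak calling, set a fold-change limit for differential peaks and annotated them with ChIPseeker (1.20.0). Read filters, duplicate handling, any shift for the Tn5 offset and how samples were combined are not given in the sources used here, and each can change which peaks pass. The deposited values were 1 peak score per interval in 2 lists, the gained and the lost peaks. The scale of the score is not stated and its steps differ between the lists. No value per sample, depth or count was in the tables used here, so no statistical test was run.

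Peaks were assigned by their centre to GENCODE M21 genes with Python (3.11.15) and numpy (2.4.6), by the nearest protein-coding TSS or by any overlap with the body extended by 10 kb. Sequences were read from GRCm38, the build of mm10, with pysam (0.24.0). Every peak of the set was 151 bp wide. The assignment was tested on simulated positions. The genes of the set and all lists were chosen with earlier results of these data known, and no list is independent evidence. All 37 genes were accounted for. Peaks within 3 kb of a TSS and the highest scores were given with coordinates, except for 1 interval that is not reported here, and of the other lists the genes with a peak within 3 kb of their start or with the most peaks were named. Alternatives changed the assignment window, the competing starts, the score limit and the treatment of repeats and close peaks. The alternatives with starts of protein-coding transcripts only, and the length-matched counts for starts and for the trabeculation genes, were chosen after seeing the data.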

Additional observations from a re-analysis of the deposited data

How the results depend on the processing

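The share of genes of the set with a gained peak was above that of all protein-coding genes under each of the 12 assignment settings, and the numbers moved with the window. Counting peaks within 1 kb as 1 site cannot change which genes have a peak. All settings were set beside all protein-coding genes (median body 17.4 kb), so they do not address the greater length of the genes of the set. Counting only peaks within 3 kb of a TSS of the gene left 12 gained peaks at 9 genes and 1 lost peak at 1 gene, all 12 at a promoter by construction (100%). Keeping the upper part of both lists by score left 34 gained peaks. With the 50 kb window 30 genes had a gained peak (81.1%, against 56.7% of all genes) and 8 a lost one (21.6% against 16%), and with the nearest TSS alone 20 (54.1% against 31.1%) and 5 (13.5% against 9.62%). Lost peaks fell from 7 to 2 at 2 genes within 10 kb of the body alone (5.41% against 7.3% of all genes), and to 3 at 3 genes (8.11%) with a 100 kb limit (9.54%), with starts of any annotated gene (8.16%), in the upper part by score and above a common score (6.1% each). In the first 3 of these the share was thus below that of all genes, while the main rule gave 13.5% against 10.8%. These shares were not matched for gene length. The common score set a single limit on both lists although the scale of their scores is not stated. For lost peaks it gave the same counts as the upper part by score. With starts of any annotated gene, all 5 gained peaks of *Adamts15* and all 3 lost peaks of *Adamts5* went to other annotated genes. With starts of protein-coding transcripts alone, *Vcan* took 1 gained peak and 26 genes of the set had one.

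Of the trabeculation genes, 16 had a gained peak within 10 kb of the body alone (47.1% against 30.3% of all genes), 17 with starts of any annotated gene (50% against 32.6%) and 8 within 3 kb of a TSS (23.5% against 12.3%). In each of these settings the list was below the jelly and protease set (59.5%, 64.9% and 24.3%). A lost peak was counted at 5 in the upper part by score and above a common score (14.7% against 6.1% each), and at 0 within 3 kb (all genes 1.23%). Of 387 counts for single genes and motif shares under alternatives, 276 were within 1.5 times of the value given and 111 moved more. No paired analysis was possible because the lists hold no value per sample, and leaving out a replicate could not be run for the same reason. Scores cannot show how far replicates differ, and a gene without a listed peak may still be accessible.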
